A study of Mus musculus with 4 samples.

Results

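The genes of the urea cycle and of ammonia handling were read in mouse liver as a set of 10: Cps1, Otc, Ass1, Asl, Arg1, Nags, Slc25a15, Gls2, Oat and Glud1. They were taken by name, as the enzymes of the cycle, its mitochondrial ornithine carrier and the enzymes that pass glutamine, glutamate and ornithine to it. All 10 were listed in the count files, among 25239 genes. The 2 control libraries came from livers of C57BL/6 mice aged 6 to 8 weeks that received saline. The 2 extract libraries came from mice of the same strain and age that were dosed intragastrically with Gynura segetum extract (2 g/mL), 30 g/kg each day over 3 weeks, the span over which controls had saline. Gynura segetum is a plant whose pyrrolizidine alkaloids injure the liver, and the model uses a plant extract and not a single alkaloid. Gene counts per library ranged from 32215268 to 49711750. Nothing in the labels says that the libraries of a group came from separate mice, so the p-values are measured against a spread between libraries that may be technical. Within each pair this spread was wider than count sampling alone gives, with chi-square over degrees of freedom of 118.1 in control and 29.14 in extract libraries. Whether it lay between mice or between preparations was not tested.

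The urea cycle turns ammonia, which is toxic to the brain, into urea for excretion, and it runs in full almost only in hepatocytes. Its first steps lie in the mitochondrion, where ammonia and bicarbonate become carbamoyl phosphate and then citrulline, and its later steps lie in the cytosol, where aspartate brings the other nitrogen and arginine is split into urea and ornithine. The cycle is strongest in periportal hepatocytes, which meet the portal blood first. Ammonia that escapes them is caught as glutamine by a thin rim of pericentral hepatocytes around the central vein.

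One member is a special case in short-read counts. Ass1, argininosuccinate synthase, has a processed copy, Gm5424, on chromosome 10 (62071123 to 62072362, GRCm38), annotated as a pseudogene. Over 1239 coding bases the Ass1 transcript and the copy differed at 6, an identity of 99.5%, and the longest run without a difference was 398 bases. The 120 coding bases shown hold 2 of these differences, in capitals, and are printed to show how little separates the copy from the gene. They are coding bases 322 to 441 of Ass1, from GENCODE vM21, and chr10:62071444-62071563 on the plus strand in the copy.
Ass1: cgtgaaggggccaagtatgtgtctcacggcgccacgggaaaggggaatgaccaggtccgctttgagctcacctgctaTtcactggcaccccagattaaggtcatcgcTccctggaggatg
Gm5424: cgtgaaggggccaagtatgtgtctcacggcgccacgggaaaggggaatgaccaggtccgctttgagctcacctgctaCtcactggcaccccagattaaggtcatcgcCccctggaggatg

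Of the stretches of 75 bases in the Ass1 transcript, 46.9% also occur in a transcript of another gene, against 0% for Cps1, Otc, Asl, Arg1, Slc25a15, Gls2 and Oat. The read length is not stated in the labels, and the share for Ass1 was 55.3% with stretches of 50 bases and 38.9% with 100. A read that matches both places equally well is not unique, and the files list between 5.18% and 9.03% of all records of a library as not uniquely aligned, in a row that names no gene. Gm5424 had 0 counts in each of the 4 libraries. How many Ass1 reads were set aside cannot be read from the counts, so its level was not ranked against other enzymes. Glud1 shared 5.82% of its 75-base stretches with pseudogenes. Nags shared 19.0% with Gm11586, an antisense gene that lies over it, and the strand setting of the counting is not given.

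Otc, ornithine transcarbamylase, fell after the extract to 0.547 of its control level. Gls2, the liver glutaminase, was lower in both extract libraries than in both controls at 0.422 of the control mean, but did not pass the threshold. The estimates for the other 8 members differed by less than 0.4 on the log2 scale. Of the 10 members, all tested with edgeR's quasi-likelihood test, 1 was lower, 0 were higher and 9 did not pass an adjusted p of 0.05. Among all 13963 genes tested, 3.63% passed as lower, 4.91% as higher and 8.54% in either direction. At an unadjusted p under 0.05 there were 2 members, Otc and Gls2, beside 23.5% of all genes. DESeq2 called the same pair of genes, with 14% of all genes called. The groups did not overlap for 5 members, 4 of them lower and 1 higher after the extract, where 54.4% of all genes tested did not overlap. The median log2 fold change was 0.005 for the members and -0.0047 for all genes tested.

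**Figure D1:**
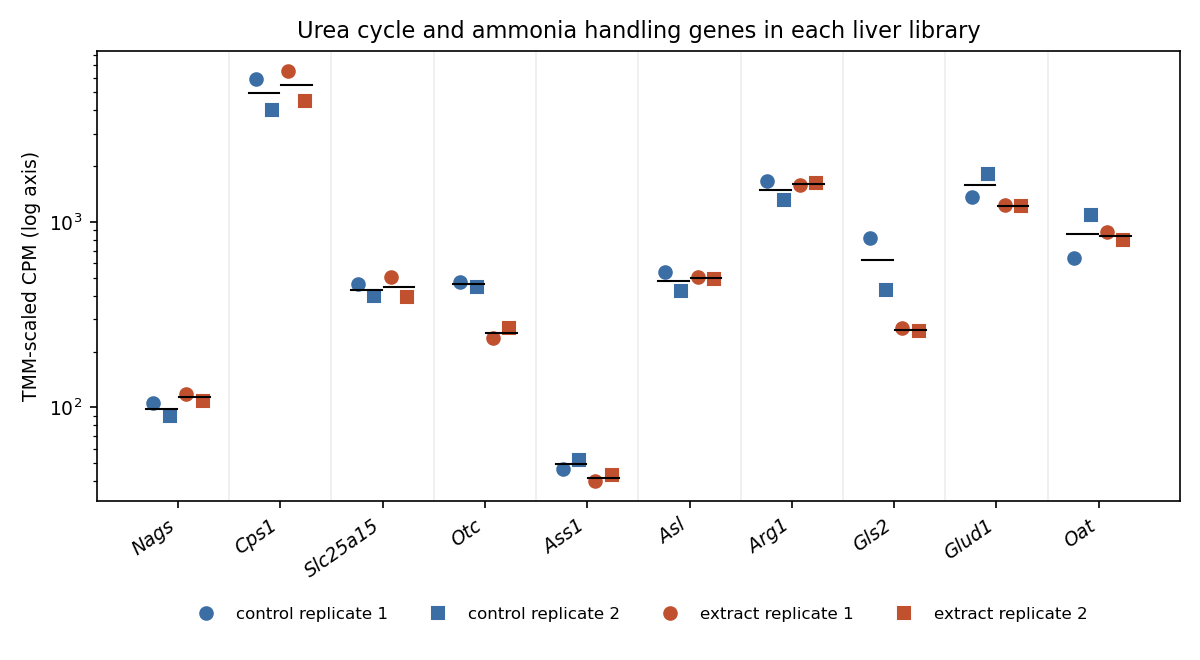
TMM-scaled CPM (log axis) of the 10 genes in each of the 4 libraries, with circles for replicate 1, squares for replicate 2 and a black bar at each group mean. Otc, Gls2, Ass1 and Glud1 are lower in both extract libraries than in both control libraries, and Nags is higher. Cps1, Asl, Arg1, Slc25a15 and Oat overlap between the groups.

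The mitochondrial entry steps came first. Nags (chromosome 11, 102145513 to 102149477, 7 exons, all positions here being GRCm38, the same build as mm10, from GENCODE vM21) makes N-acetylglutamate, the compound without which Cps1 is inactive. Its levels were 106 and 89.7 CPM in control and 118 and 108 CPM in extract libraries (CPM being counts per 1000000 counts of the TMM-scaled library). The extract values lay just above the controls, with a log2 fold change of 0.21 (SE 0.15, 95% interval -0.14 to 0.56, edgeR adjusted p = 0.456). Cps1 (chromosome 1, 67123026 to 67231259, 38 exons), carbamoyl phosphate synthetase, is the enzyme that fixes free ammonia and among the most abundant transcripts of hepatocytes. It was at 5923 and 4009 CPM in control and at 6504 and 4490 CPM in extract libraries. Replicate 1 was the higher one in both groups, by 1.48 times in control and 1.45 times in extract, and the groups overlapped. The log2 fold change of Cps1 was 0.15, with a 95% interval from -0.48 to 0.78 (edgeR adjusted p = 0.8). Dropping control replicate 1 gave 0.45 and dropping extract replicate 2 gave 0.37. The sign turned when control replicate 2 was dropped (-0.11) and when extract replicate 1 was dropped (-0.15). Slc25a15 (chromosome 8, 22375551 to 22398597, 7 exons), the carrier that brings ornithine into the mitochondrion, was at 463 and 396 CPM in control and at 502 and 392 CPM in extract libraries. Its groups overlapped as well, with a log2 fold change of 0.06 and an interval from -0.37 to 0.48, and values of -0.05 without control replicate 2 and -0.14 without extract replicate 1.

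Otc, on chromosome X (10252305 to 10321024, GRCm38), joins carbamoyl phosphate to ornithine to give citrulline. Control libraries held 22769 and 13296 Otc counts and extract libraries 10185 and 12776, or 475 and 447 against 236 and 268 CPM. Both pairs were tight and far apart, at 461 ± 19.2 against 252 ± 22.6 CPM (SD, n = 2 libraries each). The log2 fold change was -0.87 (SE 0.15, 95% interval -1.22 to -0.52, edgeR adjusted p = 0.0158). It kept its direction in all 14 alternatives, between -0.99 and -0.71, and passed the threshold in 12 of them. The exceptions were the fits without extract replicate 1 (adjusted p = 0.206) and without extract replicate 2 (0.0913), in which the spread came from the control pair alone. Ratios within a library do not depend on the scaling between libraries. Per 100 counts of Arg1, Otc had 28.4 and 33.9 in control and 15 and 16.6 in extract libraries. Per 100 counts of Cps1 it had 8.01 and 11.2 against 3.63 and 5.97. Of the ratios of Otc to the other 9 members, 8 were lower in both extract libraries than in both controls, and the ratio to Gls2 overlapped. All 9 share the Otc counts, which were already lower, so their number is not separate support. Gls2, which did not pass the threshold, also had 8 of 9 ratios lower in both extract libraries.

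Otc was the member past the threshold, so the 250 bases before its start are printed from RefSeq (GRCm38.p6, chrX:10252055-10252304, plus strand). The RefSeq promoter table matched 6 of the 10 members, Otc, Ass1, Nags, Slc25a15, Oat and Glud1.
Otc promoter: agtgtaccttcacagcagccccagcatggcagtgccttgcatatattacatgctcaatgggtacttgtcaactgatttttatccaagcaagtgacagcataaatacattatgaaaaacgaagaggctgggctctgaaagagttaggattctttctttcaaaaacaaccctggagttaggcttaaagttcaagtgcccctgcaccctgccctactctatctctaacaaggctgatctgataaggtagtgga

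No letters are in capitals, because none of 6 motifs searched on both strands was in this window. They were the TATA box TATAAA (in 12.4% of 32851 windows of this length), the CCAAT box CCAAT (33.8%), the GC box GGGCGG (32.7%), the cAMP response element TGACGTCA (1.55%), the C/EBP palindrome TTGCNNAA (9.56%) and the HNF4 repeat CAAAGTCCA (0.384%). The GC box was found before Ass1, Nags, Slc25a15 and Glud1, and the CCAAT box before Oat. The motif matches describe letters only.

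The cytosolic steps showed no member past the threshold. Ass1, on chromosome 2 (31470207 to 31520672), joins citrulline to aspartate. It had 2236 and 1541 counts in control and 1730 and 2060 in extract libraries, or 46.6 and 51.9 against 40.1 and 43.2 CPM. The extract values lay below the controls by a log2 fold change of -0.24 (95% interval -0.57 to 0.09, edgeR adjusted p = 0.361), with the limit on its counting given above. Asl (chromosome 5, 130011258 to 130029247, 16 exons), the lyase that releases fumarate and arginine, was at 537 and 426 CPM in control and at 506 and 490 CPM in extract libraries. Both extract values lay between the controls, and the log2 fold change was 0.05, with an interval from -0.34 to 0.44 and a value of -0.11 without control replicate 2. Arg1 (chromosome 10, 24915221 to 24927484, 8 exons), liver arginase, splits arginine into urea and ornithine. It stood at 1670 and 1321 CPM in control and at 1578 and 1617 CPM in extract libraries, again between the controls, with a log2 fold change of 0.10, an interval from -0.31 to 0.50 and a value of -0.06 without control replicate 2.

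**Figure D2:**
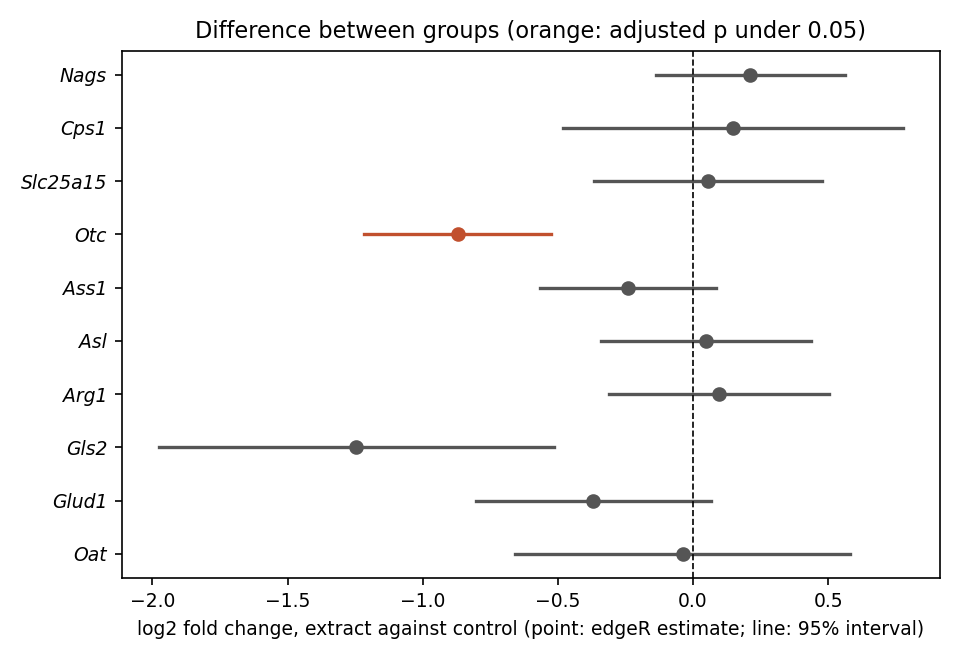
Log2 fold change of each gene, extract against control (point, edgeR estimate) with its 95% interval (line), with orange for an adjusted p under 0.05. The interval of Otc ends at -0.52 and that of Gls2 at -0.51, and the intervals of the other 8 genes include 0.

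The enzymes that pass nitrogen to the cycle followed. Gls2, on chromosome 10 (128194457 to 128210004), releases ammonia from glutamine in periportal mitochondria, and it is also known as a target of p53. Its counts were 39110 and 12810 in control and 11570 and 12281 in extract libraries, or 815 and 431 against 268 and 258 CPM. The extract pair agreed within 1.04 times, while control replicate 1 was 1.89 times control replicate 2, giving 623 ± 272 in control and 263 ± 7.41 CPM in extract libraries (SD, n = 2 each). The log2 fold change was -1.24 (SE 0.30, 95% interval -1.98 to -0.51, edgeR adjusted p = 0.0611, unadjusted p = 0.0059). Gls2 was lower in all 14 alternatives. With every library kept, it passed the threshold with DESeq2 (adjusted p = 0.000223) and with the replicate block (edgeR adjusted p = 0.0412), and in no other setting. The log2 fold change was -0.71 without control replicate 1 and -1.63 without control replicate 2. In those fits the spread came from the extract pair alone, so the gap between the controls was left out. It was -1.28 without extract replicate 1 and -1.23 without extract replicate 2. Spryd4 overlaps Gls2 on the other strand, and it had 1411 and 973 counts in control and 1888 and 2017 in extract libraries.

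Glud1 (chromosome 14, 34310727 to 34345265, 13 exons), glutamate dehydrogenase, exchanges ammonia with glutamate in mitochondria. It was at 1358 and 1810 CPM in control and at 1234 and 1219 CPM in extract libraries. Both extract values lay below both controls, with a log2 fold change of -0.37 (95% interval -0.80 to 0.07, edgeR adjusted p = 0.287). With every library kept, it passed the threshold in no setting. The log2 fold change was -0.56 without control replicate 1 and -0.14 without control replicate 2, fits in which the spread came from the extract pair alone. It was -0.39 and -0.38 without extract replicate 1 and 2. Oat (chromosome 7, 132557478 to 132576398, 10 exons), ornithine aminotransferase, links ornithine to glutamate and proline. Its levels were 639 and 1087 CPM in control and 884 and 797 CPM in extract libraries. The extract values lay between the controls, and the log2 fold change was -0.04, with an interval from -0.66 to 0.58. Its direction turned with the control used, from -0.37 without control replicate 1 to 0.40 without control replicate 2, and it was 0.01 without extract replicate 2. Although it was grouped here with periportal enzymes, Oat is known in mouse liver from pericentral hepatocytes, and in the control pair it went with the pericentral markers.

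Levels between genes were compared per kilobase of exon (CPM per kb, with exons from GENCODE vM21), without Ass1. In control libraries Arg1 (1013 CPM per kb) and Cps1 (894) led, followed by Glud1 (467), Oat (365), Gls2 (231), Asl (157), Slc25a15 (125), Otc (109) and Nags (48.2). The ranges over the control pair overlapped for the neighbours Arg1 and Cps1, Glud1 and Oat, Oat and Gls2, and Gls2 and Asl. In extract libraries Arg1 (1082), Cps1 (989), Glud1 (362) and Oat (356) kept their places. Gls2 moved from place 5 to place 7, at 97.5 CPM per kb, behind Asl (162) and Slc25a15 (130). Otc stayed in place 8 at 59.4 CPM per kb and overlapped with Nags (55.8), from which it had been apart in the controls. Its control place and this overlap depended on the length used. Otc had 4241 bases of exon, against 2997 in the transcript searched for shared stretches. In CPM per kb of unshared 75-base stretches, Otc was above Slc25a15 in control libraries (162 and 153 against 138 and 118). In extract libraries Otc was then above Nags without overlap (80.8 and 91.7 against 74.7 and 68.2). Among all genes with an exon length, Cps1 ranked between 38 and 80 and Arg1 between 42 and 65 in the 4 libraries. Summed over the 10 genes, the members took 1.16% and 0.929% of gene counts in control and 1.28% and 1.01% in extract libraries, so the groups overlapped.

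Some paralogues and the glutamine-making enzyme were read beside the members. Arg2, the mitochondrial arginase, had from 2 to 12 counts per library, and Slc25a2, a further ornithine carrier, had from 1 to 15. Glul, glutamine synthetase, is the enzyme of the pericentral rim. It was at 382 and 1529 CPM in control and at 490 and 533 CPM in extract libraries. Control replicate 2 stood apart from the other 3 libraries, and the log2 fold change was -0.90 (SE 0.72, edgeR adjusted p = 0.556). It became 0.42 without control replicate 2 and -1.58 without control replicate 1, fits in which the spread came from the extract pair alone. Per 100 counts of Glul there were 214 and 28.2 counts of Gls2 in control and 54.7 and 48.4 in extract libraries.

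The control libraries differed from each other in markers of pericentral hepatocytes. Of 15 pericentral markers other than Oat, all 15 were higher in control replicate 2 than in control replicate 1, with a median ratio of replicate 1 to replicate 2 of 0.601. Of 15 periportal markers other than Gls2, 9 were higher in control replicate 1, with a median ratio of 1.06. In the extract pair 3 pericentral and 8 periportal markers were higher in replicate 1. The pericentral markers summed to 7710 and 13023 CPM in control and to 7325 and 8694 CPM in extract libraries. The periportal markers summed to nearly equal levels in the controls, 13049 and 13036 CPM, and to 10884 and 11541 CPM in extract libraries. Among the members, Cps1, Otc, Asl, Arg1, Nags, Slc25a15 and Gls2 were higher in control replicate 1, and Ass1, Oat and Glud1 in control replicate 2, as was Glul. The part of this split in their differences was not tested. Between the groups, 6 of the 15 periportal markers fell and 0 rose, with a median log2 fold change of -0.68, and 1 of the 15 pericentral markers rose and 0 fell, with a median of -0.21. The largest falls past the threshold on the periportal list were in Ctsc (-2.00) and Hal (-1.95) on the log2 scale.

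**Figure D3:**
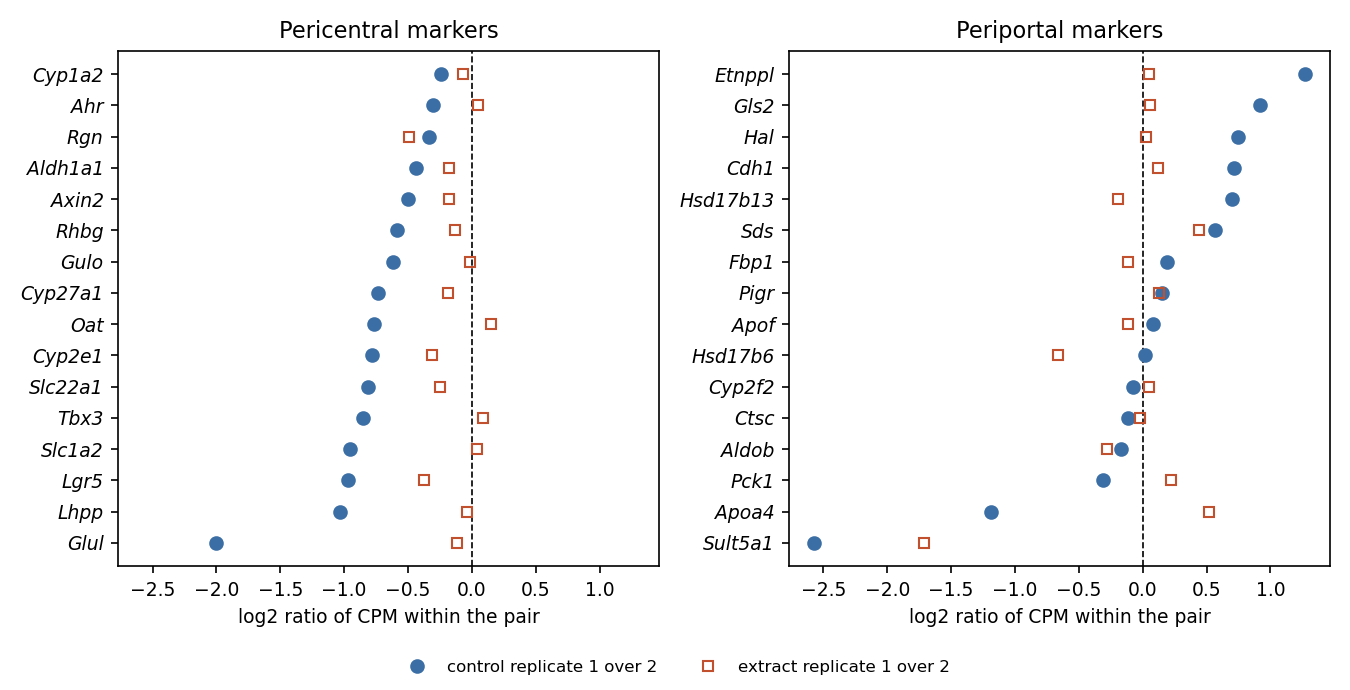
Log2 ratio of replicate 1 to replicate 2 in CPM for pericentral markers (left) and periportal markers (right), with filled circles for the control pair and open squares for the extract pair. All 15 pericentral markers other than Oat, and Oat itself, lie left of 0 in the control pair, and Glul lies farthest left among them.

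Among the 5 lists of related genes, that of enzymes that release or pass on amino or amide nitrogen had the most genes past the threshold. On this list of 18 ammonia-releasing enzymes, 17 were tested, 5 fell, 2 rose and 10 did not pass, with a median log2 fold change of -0.19. Hal, histidine ammonia-lyase, releases the amino group of histidine as free ammonia in periportal hepatocytes. It was at 754 and 449 CPM in control and at 157 and 154 CPM in extract libraries, far below both controls (a difference of -1.95 on the log2 scale with SE 0.26, adjusted p = 0.00868 by edgeR), and it passed the threshold in all 14 alternatives. Gldc and Amt, both parts of the glycine cleavage system that frees ammonia from glycine, fell as well. Gldc went from 332 and 227 to 119 and 86.4 CPM (-1.44, SE 0.24, edgeR adjusted p = 0.0183). Amt went from 70.4 and 89.9 to 33.5 and 41.2 CPM (-1.10, SE 0.18, edgeR adjusted p = 0.0153). Gpt, alanine aminotransferase, which moves the amino group of alanine to glutamate, rose from 291 and 256 to 468 and 445 CPM (0.74, SE 0.14, edgeR adjusted p = 0.0274). The others past the threshold, named after their values were seen, were serine dehydratase Sds (-1.12) and monoamine oxidase Maob (-0.60), which fell, and the asparaginase Asrgl1 (0.88), which rose.

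**Figure D4:**
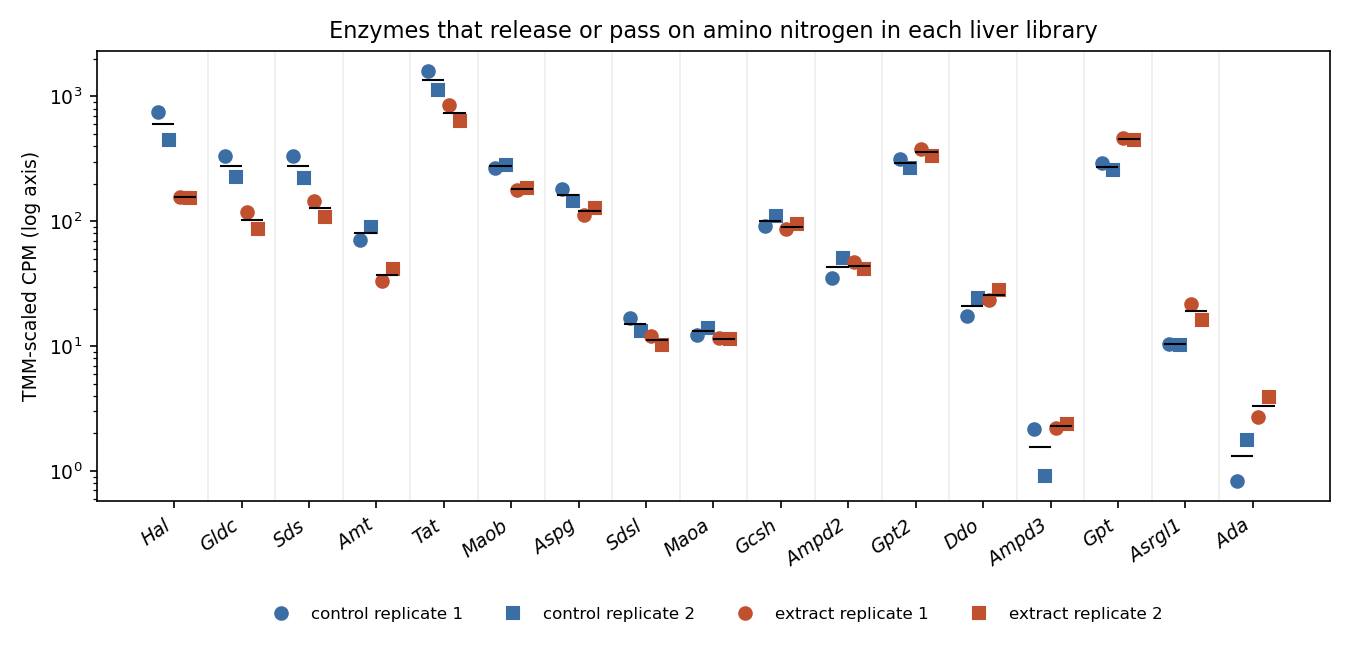
TMM-scaled CPM (log axis) of the 17 tested ammonia-releasing enzymes in each library, ordered by log2 fold change, with circles for replicate 1, squares for replicate 2 and a black bar at each group mean. Hal, Gldc, Sds, Amt, Tat, Maob, Aspg, Sdsl and Maoa lie lower in both extract libraries than in both controls. Gpt, Gpt2, Asrgl1, Ada and Ampd3 lie higher, and Gcsh, Ddo and Ampd2 overlap. Among all genes tested, 54.4% did not overlap between the groups.

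Of these calls, that of Hal alone held with each library left out in turn. Amt was not past the threshold without extract replicate 1 (adjusted p = 0.12), nor Gldc (0.0616) or Sds (0.17) without extract replicate 2. Gpt was not past it without extract replicate 1 (0.267) or 2 (0.188), nor Asrgl1 (0.446 and 0.088) or Maob (0.424 and 0.297). With total counts in place of TMM scaling, Sds (0.0789) and Maob (0.0796) were also not past it.

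The lists of transport and supply showed few changes. Among 14 tested genes of ammonia and glutamine handling, 1 fell, 0 rose and 13 did not pass. The one that fell was Aqp8, an aquaporin known to carry water and ammonia across hepatocyte membranes, from 127 and 137 to 49.5 and 69.5 CPM (-1.15 on the log2 scale, SE 0.19, adjusted p = 0.0154 by edgeR). The ammonia channel Rhbg, named after its values were seen, was at 17.3 and 26 CPM in control and at 11 and 12 CPM in extract libraries, with an adjusted p of 0.0576. On the list of arginine, ornithine and proline handling, 1 of 19 tested genes fell, 0 rose and 18 did not pass. It was Gatm, which uses arginine in the first step of creatine synthesis, at 8.77 and 11.2 CPM in control and 4.8 and 4.34 CPM in extract libraries (-1.13, SE 0.24, edgeR adjusted p = 0.0341). Of 12 genes that supply aspartate, fumarate handling and bicarbonate, 0 passed the threshold by edgeR, with 1 at an unadjusted p under 0.05, fumarase Fh1 (log2 fold change 0.36, adjusted p = 0.189).

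Of 20 regulators of urea cycle genes, 2 rose, 0 fell and 18 did not pass. Cebpb, a bZIP factor of the stressed liver, rose from 67.3 and 76.1 to 135 and 133 CPM (0.90 on the log2 scale, SE 0.14, adjusted p = 0.012 by edgeR). Ahr, the aryl hydrocarbon receptor, rose from 42 and 51.8 to 77.1 and 74.4 CPM (0.69, SE 0.15, edgeR adjusted p = 0.0399). Hnf4a, the hepatocyte nuclear receptor known to bind regulatory DNA of Otc, had a log2 fold change of -0.40 with an adjusted p of 0.158. Fh1 and Hnf4a were named after their values were seen. Over these 5 lists 82 genes were tested, 7 fell and 4 rose, or 13.4%, beside 8.54% of all genes. With single libraries left out, the number of these genes past the threshold was 24 or 27 when control replicate 1 or 2 was dropped, and 3 or 4 when extract replicate 1 or 2 was dropped. Aqp8 was not past the threshold without extract replicate 1 (0.111), nor were Gatm, Cebpb and Ahr with either extract library left out (0.189 and 0.243, 0.113 and 0.103, 0.299 and 0.235), nor Gatm with total counts (0.0581).

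The tissue carried the defining transcripts of liver. The 14 hepatocyte markers summed to between 119626 and 190770 CPM per library, and 3 of them fell, Apoa1, Fgb and Ahsg, with a median of -0.53 for the list. In whole liver, fewer hepatocytes and less RNA per hepatocyte cannot be told apart. Kupffer cell markers fell in 11 of 12, from sums of 844 and 661 CPM to 84.7 and 86.2 CPM. Of the sinusoidal endothelial markers 5 of 10 fell and 1 rose, with sums of 392 and 379 CPM in control and 338 and 309 CPM in extract libraries. Stellate cell markers fell in 3 of 10, from sums of 639 and 427 to 339 and 304 CPM. Of 6 tested cholangiocyte markers 1 fell, and of 10 lymphocyte markers 0 passed the threshold by edgeR, with 6 at an unadjusted p under 0.05. The part of these cell types in the values of the members was not tested. Of 12 tested monocyte and macrophage markers 3 fell and 1 rose, Gpnmb, and of the 2 enterocyte markers and 1 pancreatic acinar marker tested 0 passed the threshold by edgeR or an unadjusted p under 0.05. Arg1 is also known from alternatively activated macrophages, and of their markers on that list Mrc1 fell from 50.2 and 46.2 to 10.2 and 10.1 CPM (adjusted p = 0.000542 by edgeR), while Chil3 and Retnla, named after their values were seen, had at most 0.67 CPM in any library. Cps1 and Otc are also known from enterocytes. Of 8 enterocyte markers, 3 had 0 counts in every library, Sis, Alpi and Cdx2, named after their values were seen. The list summed to 148 and 334 CPM in control and to 246 and 183 CPM in extract libraries. Most of this was Apoa4, which is also on the periportal list, at 128 and 290 against 230 and 160 CPM. Proximal tubule markers summed to at most 0.354 CPM.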

How the data were processed

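RNA-seq of whole mouse liver was read in 4 libraries, 2 control and 2 extract. The authors deposited whole-number read counts per gene, made with CASAVA 1.8, HISAT2 2.1.0, HTSeq and mm10, per the submitters' processing notes, which name no settings here. The 5 rows naming no gene, chiefly reads in no feature (8.4% to 10.2% of records) and not uniquely aligned (5.18% to 9.03%), were left out of library sizes.

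Differences between groups were fitted by edgeR 4.0.16 under R 4.3.3 (filterByExpr, TMM scaling, robust quasi-likelihood fit, 2-sided), with Benjamini-Hochberg adjustment over all 13963 genes tested and a threshold of 0.05, without a replicate block. CPM are counts per 1000000 of the TMM-scaled library size. The steps were tested on simulated data. Alternatives used DESeq2 1.42.0, limma 3.58.1 (voom), other scalings and filters, a replicate block, and each library left out. With 2 libraries against 2, an exact 2-sided permutation test cannot go below p = 0.333. Exon lengths came from GENCODE vM21, for 96.5% of genes.

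The members and lists were chosen with earlier results of these data known. All members were named, then up to 4 genes per related list with the smallest p among those past the threshold, Arg2, Slc25a2 and Glul, and from cell type lists the most abundant or most changed markers. Hal and Sds stand on the periportal and the ammonia-releasing list, Tat on the latter and the hepatocyte list, and Ahr on the pericentral and the regulator list. Of 228 list entries, 226 matched by symbol, 1 by synonym and 1 did not match. A further gene of the lists is not reported here.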

Additional observations from a re-analysis of the deposited data

How the results depend on the processing

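Otc was lower in all 14 alternatives and past the threshold in 12, with adjusted p from 1.97e-06 to 0.206. The number of members past the threshold, 1 by edgeR, was 2 with DESeq2, 2 with the replicate block and 0 to 3 with single libraries left out. Of the related genes, 11 were past it, and 3 to 27 with single libraries left out. Of all genes, 1193 were past it, 1954 with DESeq2 and 367 to 3591 with single libraries left out. Dropping control replicate 1 gave 3246 and control replicate 2 gave 3591, while dropping extract replicate 1 gave 367 and extract replicate 2 gave 479. In those fits the lone library is assumed to vary like the other pair, and the genes tested differ in number. Without the 20 most abundant genes Cps1 was not tested. The summed share of gene counts, taken without TMM scaling, was 0.0991 percentage points higher after the extract, and -0.0367 to 0.235 with single libraries left out. The difference was 0.0377 without the most abundant genes in the denominator. Its direction depended on the scaling. In TMM-scaled CPM the members summed to 12031.2 and 10069.7 in control and to 11870.5 and 9680.9 in extract libraries, lower on average after the extract. The labels give both groups the numbers 1 and 2. The difference of replicate 1 minus 2 in control correlated over genes with that in extract libraries at 0.157, which does not show that the numbers pair the libraries. With the replicate block 1584 genes were past the threshold, and the adjusted p was 0.0116 for Otc and 0.0412 for Gls2.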
